A study of Mus musculus with 40 samples.

Results

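The Wnt pathway genes of the mouse rib callus were followed through regeneration in immature and mature mice. They comprised 46 genes of the 21204 in the authors' normalized table, taken by name: Wnt, Fzd, Sfrp, Dkk and Rspo genes with a number in the symbol, plus Frzb, Wif1, Lrp5, Lrp6, Axin2, Lef1, Tcf7, Lgr4, Lgr5, Lgr6, Notum and Nkd2. By role these were 13 Wnt ligands, 12 receptors, 6 genes of the R-spondin axis, 10 secreted antagonists, 4 targets or effectors, and Fzd10os, a transcript on the strand opposite Fzd10. Dkk3 was counted as an antagonist by its family, although its action on Wnt signalling is not settled. Another 9 genes of the same families had too few reads for the authors' filter, and 4 of them (Wnt3, Wnt8a, Wnt7a and Dkk4) had at most 3 reads in every library.

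Wnt proteins are secreted lipid-modified ligands that bind a Frizzled receptor and an Lrp5 or Lrp6 co-receptor. The canonical branch stabilises beta-catenin, which acts with Tcf and Lef factors on targets such as Axin2, and R-spondins strengthen it by binding Lgr receptors. Secreted frizzled-related proteins and Wif1 bind Wnt proteins outside the cell, Dkk1 binds Lrp5 and Lrp6, and Notum removes the lipid from Wnt proteins. In bone the pathway is known for driving osteoblast formation, and its secreted inhibitors for restraining it.

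Bulk RNA sequencing was done on ribs of wild-type female C57BL/6 mice, immature (labelled 7 weeks) or mature (labelled over 10 months), with no drug or transgene named in the labels of any group. Libraries came from baseline tissue and from the resected site on the day of surgery (0dpr) and 2, 5 and 14 days after it (2dpr, 5dpr and 14dpr), with n = 4 per age and stage except mature 5dpr, with n = 3. The labels describe baseline as a composite of bone, marrow and intercostal muscle, and the other stages as callus, so a difference from baseline cannot be told apart from a difference in what was dissected. The sources also differ on when baseline was taken: the labels place its collection after the resection and the study's text before it. The labels do not say whether 1 animal gave each library, so p-values measure the spread between these libraries. In bulk tissue, fewer cells of a type and less RNA per cell cannot be told apart.

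Libraries held 6075274 to 21546794 counts, with a median of 9092095. The library mature 2dpr replicate 3 stood apart: 14213 genes had a read in it against 19067 to 20822 in the other libraries, its mean correlation with the rest of its group was 0.893, and 14 of the 46 genes were at 0 against 0 to 3 elsewhere. Those at 0 included Wnt10b, Dkk1, Notum, Frzb, Lef1, Tcf7, Lgr5 and Lgr6. Counts include it unless stated. Where a single value that involves 2dpr is given for 1 of the 46 genes, it lay on the same side of the threshold without this library. The make-up of the tissue moved with stage. The summed CPM (read counts of a gene scaled to the TMM-corrected size of its library, the unit used throughout) of 20 skeletal muscle genes was 88559 to 114815 at immature baseline, 125000 to 229009 at immature 0dpr and 18779 to 30635 at immature 2dpr, and 48247 to 93239, 129858 to 260468 and 15717 to 31163 in mature mice. At 14dpr the 14 measured cartilage genes summed to 2065 to 4712 in immature and 666 to 4934 in mature mice, against 504 to 1358 and 246 to 364 at 5dpr. The 15 osteoblast genes summed to 35278 to 56924 and 25678 to 42689 at 14dpr, against 18658 to 32276 and 17077 to 20221 at 5dpr. The 12 macrophage genes summed to 1185 to 2042 at immature and 1289 to 2485 at mature 0dpr, against 9489 to 10810 and 9582 to 10988 at 2dpr. The 9 erythroid genes summed to 3771 to 19178 and 13116 to 25937 at 0dpr, against 2112 to 4348 and 1150 to 3886 at 2dpr. The B lineage and adipocyte genes also summed lower at 2dpr than at 0dpr, without overlap, in both ages. The part of these cell types in the results was not tested beyond the fits with a marker score given beside them.

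Compared per kilobase of exon and averaged over all libraries, the most abundant of the 46 were Sfrp2 at 23.5 CPM per kilobase, Rspo1 at 22.9, Dkk3 at 18.9, Fzd4 at 14.8, Sfrp4 at 14.1 and Sfrp1 at 13.1. Antagonists, with Dkk3 counted as one by its family, thus took 4 of the 6 highest places. No ligand was among the 15 highest: Wnt9a led them at 3.35, followed by Wnt5b at 2.41 and Wnt5a at 2.16. Wnt9b and Wnt10a were lowest, with at most 3 reads in 32 and 19 of the 39 libraries.

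**Figure D1:**
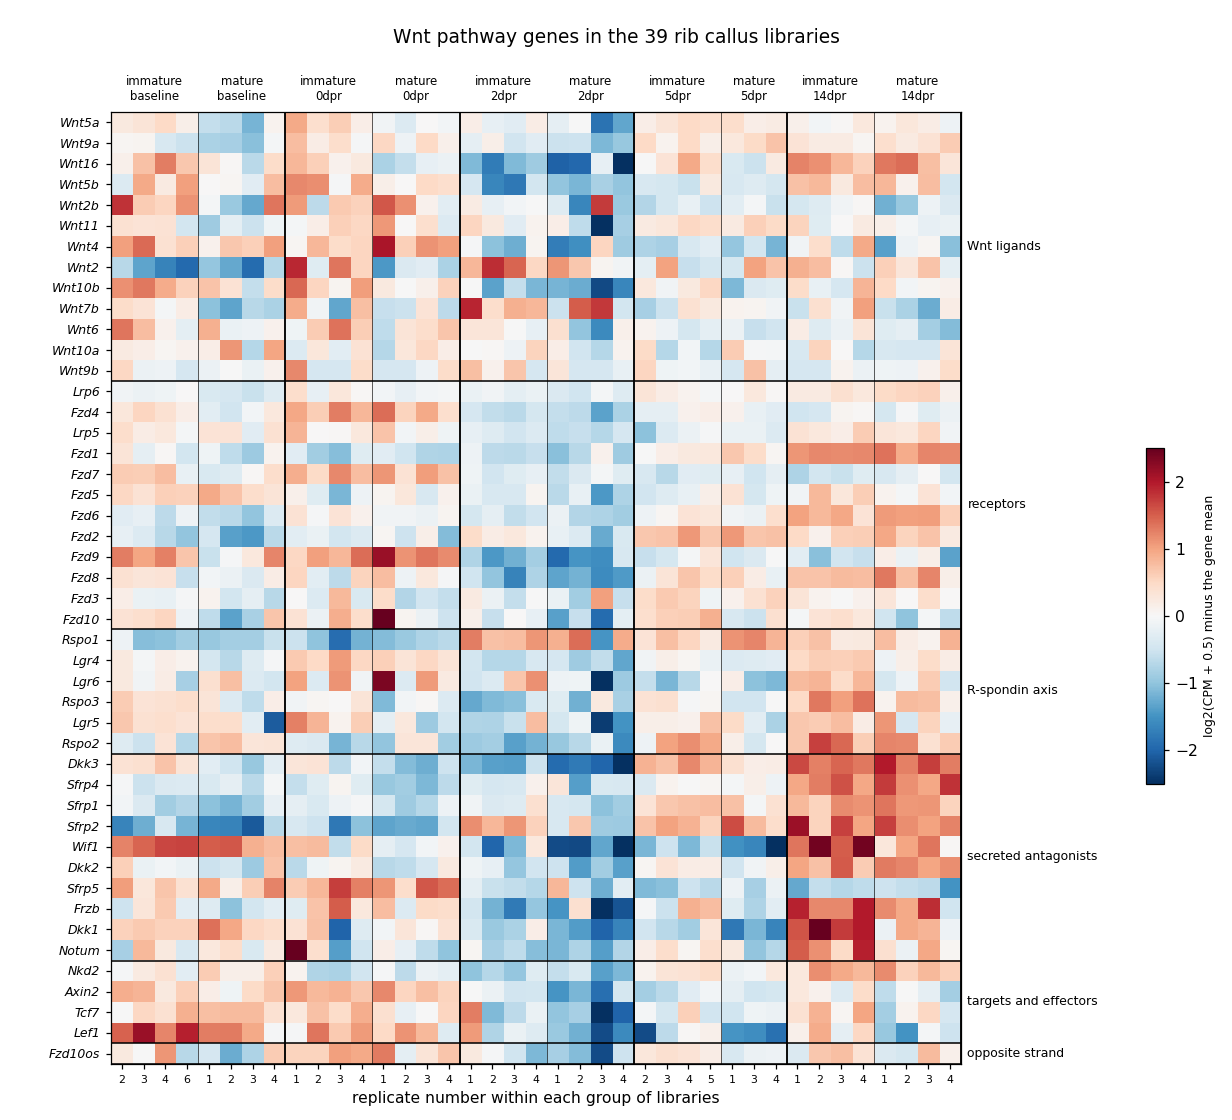
Each row is a gene and each column a library, ordered by stage, age and replicate number, and colour gives log2(CPM + 0.5) minus the mean of that gene over the 39 libraries, capped at 2.5 in either direction. The 2dpr columns are mostly blue and the antagonist rows are mostly red at 14dpr, and mature 2dpr replicate 3 is dark blue for genes at 0 there, such as Wnt11, Frzb, Tcf7, Lgr5 and Lgr6.

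Changes between neighbouring stages, averaged over both ages, were tested with edgeR on all 21203 mouse genes. From baseline to 0dpr, 12 of the 46 genes passed an adjusted p of 0.05 (8 higher, 4 lower), against 33.0% of all genes (17.1% higher, 15.9% lower). From 0dpr to 2dpr, 33 of 46 passed (3 higher, 30 lower) against 58.6% of all genes, with 27.9% higher and 30.8% lower, and the median log2 fold change was -0.89 for the 46 and -0.04 for all genes. From 2dpr to 5dpr, 20 of 46 passed (19 higher, 1 lower) against 21.4% of all genes (11.5% higher, 9.96% lower). From 5dpr to 14dpr, 15 of 46 passed, all higher, against 11.4% of all genes (5.21% higher, 6.22% lower). Between baseline and 14dpr, 27 of 46 passed (18 higher, 9 lower) against 45.9% of all genes (22.4% higher, 23.5% lower).

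Without mature 2dpr replicate 3, 35 genes passed from 0dpr to 2dpr (4 higher, 31 lower; 32 of them shared with the full fit, and Wnt2, Wnt2b and Wnt11 gained) and 20 from 2dpr to 5dpr, all higher (19 shared). Over these steps 13138 and 5019 of all genes passed without that library, in place of 12433 and 4540. The fall at 2dpr coincided with the fall of the muscle genes, whose sums at 0dpr and 2dpr did not overlap. With the muscle score as a covariate, 4 of the 46 genes passed from 0dpr to 2dpr (Dkk3 and Wif1, again lower, and Fzd5 and Lgr5, which had not passed), and 1427 of all genes in place of 12433. Of the 31 genes that no longer passed, 13 had a fold change at least as large as before, 14 a smaller one and 4 one of the other sign, and the median standard error of the 31 went from 0.26 to 0.75. Among them the fold change of Notum was -5.21 (adjusted p = 0.0634), that of Dkk1 -3.16 (adjusted p = 0.151) and that of Wnt10b -2.55 (adjusted p = 0.13), while Wnt4 stood at -0.03 (adjusted p = 0.995) and Fzd9 at -0.17 (adjusted p = 0.94). The part of muscle in the change of each gene was otherwise not tested. With that covariate 5 genes passed at 0dpr against baseline, all among the 12, and 16 from 2dpr to 5dpr, of which 14 were shared with the 20. Of all genes, 1841 and 2483 passed in these comparisons, in place of 7002 and 4540. From 5dpr to 14dpr 14 passed, all among the 15, and between baseline and 14dpr 14 passed, of which 13 were shared with the 27. Here 2128 and 4174 of all genes passed, in place of 2422 and 9737.

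**Figure D2:**
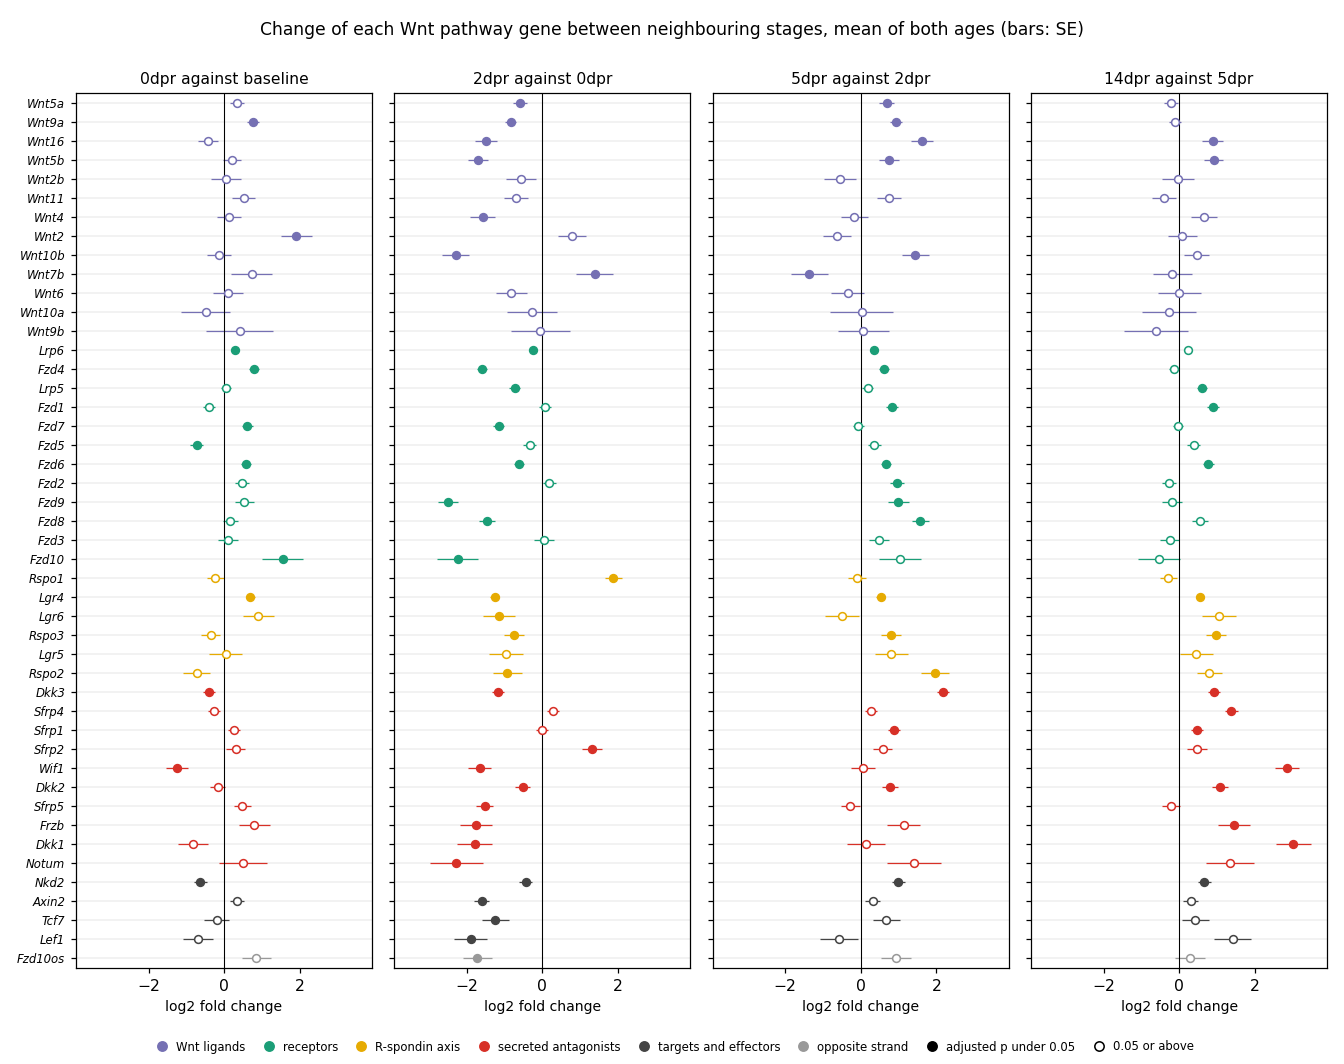
Each dot is the log2 fold change of a gene between neighbouring stages, averaged over both ages, with its standard error, coloured by role and filled where the adjusted p is under 0.05. Most filled dots lie left of 0 from 0dpr to 2dpr, 19 of 20 lie right of 0 from 2dpr to 5dpr, and all 15 lie right of 0 from 5dpr to 14dpr, where Dkk1 and Wif1 lie farthest out.

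Within each age, falls outnumbered rises at 2dpr and rises outnumbered falls at 5dpr and 14dpr. Of the 46 genes in immature mice, 3 rose and 1 fell at 0dpr against baseline (5.98% and 4.66% of all genes), 2 rose and 19 fell at 2dpr against 0dpr (21.8% and 22.2% of all genes) and 9 rose and 0 fell at 5dpr against 2dpr (4.37% and 3.67% of all genes). Later in immature mice, 7 rose and 0 fell at 14dpr against 5dpr (1.73% and 1.45% of all genes) and 16 rose and 5 fell at 14dpr against baseline (16.4% and 15.1% of all genes). In mature mice, 8 rose and 2 fell at 0dpr against baseline (11.9% and 10.6% of all genes), 3 rose and 27 fell at 2dpr against 0dpr (22.7% and 24.9% of all genes) and 15 rose and 0 fell at 5dpr against 2dpr (8.16% and 6.38% of all genes), and later 6 rose and 0 fell at 14dpr against 5dpr (1.95% and 2.23% of all genes) and 17 rose and 4 fell at 14dpr against baseline (17.1% and 16.4% of all genes). Without mature 2dpr replicate 3, in mature mice 3 rose and 28 fell at 2dpr against 0dpr (24.5% and 24.3% of all genes). At 5dpr against 2dpr 15 rose in mature mice (7.27% of all genes). In immature mice 3 rose and 22 fell at 2dpr (24.7% and 25.1% of all genes), and 11 rose at 5dpr (5.97%). These counts were not compared between the ages.

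The roles can be read against the shares of all genes given above. At 0dpr 15.4% of the ligands rose, near the 17.1% of all genes, and 41.7% of the receptors. At 2dpr 46.2% of the ligands, 66.7% of the receptors, 66.7% of the R-spondin axis, 70.0% of the antagonists and all 4 targets and effectors fell, against 30.8% of all genes. At 5dpr 38.5% of the ligands, 58.3% of the receptors, 3 of the 6 genes of the R-spondin axis, 30.0% of the antagonists and 25.0% of the targets and effectors rose, against 11.5%. At 14dpr against 5dpr 70.0% of the antagonists rose, 33.3% of the R-spondin axis, 25.0% of the receptors, 25.0% of the targets and effectors and 15.4% of the ligands, against 5.21%. With 4 to 13 genes a role, 1 gene moves a share by 7.69 to 25.0 percentage points. Without mature 2dpr replicate 3, at 2dpr 2 ligands rose (Wnt2 and Wnt7b) and 8 fell, 3 of the 4 targets and effectors fell, and the counts of the receptors, R-spondin axis and antagonists were as given below. At 5dpr 5 ligands rose and none fell, and 8 receptors rose. Of all genes, 30.6% rose and 31.4% fell at 2dpr and 12.4% rose at 5dpr without that library.

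Among the 13 ligands, 2 rose at 0dpr, 1 rose and 6 fell at 2dpr, 5 rose and 1 fell at 5dpr, and 2 rose at 14dpr against 5dpr. Wnt2, a canonical ligand, was low at baseline, at 1.37, 0.722, 0.454 and 0.287 CPM in immature and 1.05, 0.754, 0.296 and 1.35 in mature mice. At 0dpr it stood at 10.8, 1.97, 7.19 and 3.895 in immature mice, all above immature baseline, and at 0.628, 1.87, 1.99 and 1.25 in mature mice, which overlapped mature baseline. Its rise averaged over both ages passed the test (log2 fold change 1.92 ± 0.41 (SE), adjusted p = 5.20e-04), and it was higher at 14dpr than at baseline (log2 fold change 2.15 ± 0.40 (SE), adjusted p = 3.39e-05). Wnt9a, a ligand known for its part in joint and cranial skeleton formation, rose at 0dpr (log2 fold change 0.77 ± 0.16 (SE), adjusted p = 2.97e-04), fell at 2dpr (log2 fold change -0.84 ± 0.16 (SE), adjusted p = 2.04e-05) and rose at 5dpr (log2 fold change 0.93 ± 0.16 (SE), adjusted p = 4.32e-05). Its level was 9.22 ± 2.07, 13.8 ± 3.496, 9.17 ± 1.83, 13.3 ± 2.12 and 12.2 ± 1.06 CPM (SD) from baseline to 14dpr in immature mice. The mature means were 6.65 ± 2.42, 12.9 ± 2.79, 6.02 ± 1.33, 15.02 ± 2.47 and 14.2 ± 1.77.

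Wnt10b, which promotes bone formation over fat formation, had the largest fall of any ligand at 2dpr. It stood at 5.98, 2.96, 2.003 and 4.45 CPM at immature 0dpr and 1.88, 0.4501, 1.09 and 0.581 at immature 2dpr. Mature mice went from 2.35, 1.87, 2.11 and 3.06 to 0.578, 0.5197, 0 and 0.278. Within each age no 2dpr library reached the lowest 0dpr library (log2 fold change -2.30 ± 0.35 (SE), adjusted p = 7.67e-07; without mature 2dpr replicate 3, -2.14 (adjusted p = 6.04e-07)). It rose again at 5dpr (log2 fold change 1.45 ± 0.36 (SE), adjusted p = 0.00299; without that library, 1.29 (adjusted p = 0.00348)). Wnt16, a ligand known for cortical bone thickness, rose at 5dpr (log2 fold change 1.63 ± 0.29 (SE), adjusted p = 8.04e-05) and at 14dpr against 5dpr by 0.88 ± 0.28, where the call was lost in 9 of the 15 fits that left out 1 library, with adjusted p up to 0.102 without mature 5dpr replicate 3. Wnt5b also rose at 14dpr against 5dpr (log2 fold change 0.91 ± 0.26 (SE), adjusted p = 0.0177).

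Wnt7b, a ligand known to promote bone formation, went the other way. It rose at 2dpr (log2 fold change 1.38 ± 0.49 (SE), adjusted p = 0.0153; without mature 2dpr replicate 3, 1.11 (adjusted p = 0.0451)) and fell at 5dpr (log2 fold change -1.36 ± 0.49 (SE), adjusted p = 0.0442; without that library, -1.08 (adjusted p = 0.103)). The call at 5dpr was also lost in other fits that left out 1 library, with adjusted p up to 0.113 without immature 2dpr replicate 1. The exons of Wnt7b overlap an antisense gene. Wnt5a, a mostly non-canonical ligand, had levels of 19.9 ± 2.19, 24.01 ± 5.72, 15.8 ± 2.71, 20.6 ± 2.03 and 17.1 ± 1.703 CPM (SD) from baseline to 14dpr in immature mice. The mature means were 11.03 ± 4.29, 14.7 ± 1.58, 9.93 ± 5.66, 19.5 ± 2.201 and 17.4 ± 2.12. Wnt5a shares 358 exon bases with an antisense gene. Of the ligands, 3 were lower at 14dpr than at baseline: Wnt2b (log2 fold change -1.11 ± 0.41 (SE), adjusted p = 0.0238), Wnt6 (log2 fold change -1.05 ± 0.43 (SE), adjusted p = 0.041) and Wnt4 (log2 fold change -0.97 ± 0.33 (SE), adjusted p = 0.0147). The Wnt6 call was lost in 7 of 16 fits that left out 1 library (adjusted p up to 0.123, without immature baseline replicate 2) and the Wnt2b call in 3 of 16 (up to 0.180, without mature baseline replicate 4). With the muscle score as a covariate none of these passed: Wnt2b stood at -1.03 (adjusted p = 0.429), Wnt6 at -0.77 (adjusted p = 0.565) and Wnt4 at -0.11 (adjusted p = 0.94), and the gain of Wnt2 over baseline at 1.44 (adjusted p = 0.167).

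Of the 12 receptors, 5 rose and 1 fell at 0dpr, 8 fell at 2dpr, 7 rose at 5dpr, and 3 rose at 14dpr against 5dpr. Fzd4, whose receptor also serves the ligand norrin in vessels, was the most abundant receptor per kilobase. It stood at 111, 132, 119 and 102 CPM at immature baseline, 179, 140.03, 221 and 162 at 0dpr and 68.3, 59.4, 56.8 and 67.02 at 2dpr. In mature mice these were 75.98, 65.4, 86.9 and 110.1 at baseline, 241, 134, 177 and 122 at 0dpr and 60.1, 57.9, 35.9 and 52.4 at 2dpr. All 0dpr libraries were above all baseline and all 2dpr libraries of the same age. The rise (log2 fold change 0.80 ± 0.13 (SE), adjusted p = 2.72e-05) and the fall (log2 fold change -1.59 ± 0.13 (SE), adjusted p = 1.67e-12; without mature 2dpr replicate 3, -1.53 (adjusted p = 5.46e-12)) both passed, and levels at 14dpr were 80.02 ± 16.4 and 78.2 ± 9.52 CPM (SD) in immature and mature mice.

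Fzd9, a receptor required for full osteoblast function, had the largest fall of all 46 genes at 2dpr. It stood at 11.8, 17.01, 14.8 and 22.1 CPM at immature 0dpr and 4.61, 2.701, 3.27 and 4.298 at immature 2dpr, and at 38.1, 18.3, 21.4 and 19.03 and 1.73, 2.599, 2.44 and 6.01 in mature mice. The stages did not overlap (log2 fold change -2.51 ± 0.27 (SE), adjusted p = 3.77e-10; without mature 2dpr replicate 3, -2.45 (adjusted p = 1.75e-09)). It rose at 5dpr (log2 fold change 1.00 ± 0.27 (SE), adjusted p = 0.00613) yet was still lower at 14dpr than at baseline (log2 fold change -1.16 ± 0.25 (SE), adjusted p = 2.72e-04). Fzd10 was called at 0dpr (log2 fold change 1.55 ± 0.53 (SE), adjusted p = 0.0235) and at 2dpr (log2 fold change -2.24 ± 0.55 (SE), adjusted p = 6.38e-04) on the strength of 1 library: mature 0dpr replicate 1 held 28.1 CPM and the other mature 0dpr libraries 1.497, 1.22 and 0.833. Without it the changes were 0.22 (adjusted p = 0.729) and -0.92 (adjusted p = 0.0540). Fzd10 and Fzd10os start 150 bases apart on opposite strands, and since the strand setting of the counting is not given in the sources used here, their reads are uncertain. Fzd10os fell at 2dpr (log2 fold change -1.72 ± 0.39 (SE), adjusted p = 3.01e-04; without mature 2dpr replicate 3, -1.54 (adjusted p = 2.85e-04)).

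Lrp6, the co-receptor with the most reads, stood at 153 ± 6.69, 181 ± 35.3, 144 ± 6.37, 179.8 ± 19.5 and 197 ± 11.97 CPM (SD) from baseline to 14dpr in immature mice. The mature means were 121 ± 8.13, 152 ± 7.37, 132 ± 17.9, 174 ± 17.1 and 221 ± 29.9. It was called in 4 of the 5 stage comparisons, by small amounts: 0.28 ± 0.08 at 0dpr (adjusted p = 0.00734, and 0.0642 without immature 0dpr replicate 1), -0.26 ± 0.08 at 2dpr, 0.36 ± 0.08 at 5dpr and 0.62 ± 0.08 at 14dpr against baseline. The other receptors that rose at 0dpr were Fzd6 (log2 fold change 0.57 ± 0.13 (SE), adjusted p = 0.0012) and Fzd7 (log2 fold change 0.62 ± 0.14 (SE), adjusted p = 6.16e-04), and Fzd5 fell (log2 fold change -0.73 ± 0.17 (SE), adjusted p = 0.0014), though 1233 of the Fzd5 exon bases are shared with a gene on the other strand. Fzd6 shares 152 exon bases with a gene on its other strand. Fzd8 (log2 fold change 1.57 ± 0.22 (SE), adjusted p = 1.39e-06) and Fzd2 (log2 fold change 0.97 ± 0.18 (SE), adjusted p = 1.43e-04) rose at 5dpr, as did Fzd9.

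Fzd1 and Fzd6 ended higher than they began. Fzd1 was 33.8 ± 8.01 CPM (SD) at immature and 27.8 ± 8.75 at mature baseline, and 79.9 ± 2.62 and 80.4 ± 9.91 at 14dpr (log2 fold change 1.39 ± 0.16 (SE), adjusted p = 3.33e-09). Fzd6 also rose over that span (log2 fold change 1.40 ± 0.13 (SE), adjusted p = 8.31e-11), while Fzd7 fell (log2 fold change -0.63 ± 0.14 (SE), adjusted p = 2.31e-04). Receptors of the same family therefore ended on both sides of their baseline: Fzd1, Fzd2, Fzd6, Fzd8 and Lrp6 were higher, and Fzd4, Fzd7 and Fzd9 lower. The Fzd4 difference of -0.33 ± 0.13 was lost in 8 of 16 fits that left out 1 library (adjusted p up to 0.134, without mature baseline replicate 4), and the Fzd4, Fzd7 and Fzd9 differences changed sign with the muscle score as a covariate, to values of 0.07, 0.03 and 0.23 that did not pass.

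In the R-spondin axis, Rspo1 rose at 2dpr while 4 of the other 5 genes fell. It stood at 25.4, 18.1, 9.47 and 15.998 CPM at immature 0dpr and 90.5, 61.7, 63.3 and 80.4 at immature 2dpr. In mature mice it went from 17.1, 19.2, 21.4 and 22.9 to 69.3, 97.9, 12.99 and 70.7, where the value of 12.99 was that of replicate 3. The other 2dpr libraries were all above all 0dpr libraries (log2 fold change 1.88 ± 0.23 (SE), adjusted p = 1.19e-08; without mature 2dpr replicate 3, 2.04 (adjusted p = 8.46e-13)). At 5dpr it was 46.96, 62.9, 54.2 and 43.1 in immature and 81.1, 86.8 and 66.7 in mature mice, so the mature libraries lay higher, and at 14dpr 51.3 ± 9.16 and 53.2 ± 14.4 (SD), above baseline in both ages (log2 fold change 1.26 ± 0.23 (SE), adjusted p = 1.77e-05). Lgr4, an R-spondin receptor, moved the opposite way at 2dpr. It was 34.99 ± 2.97, 52.8 ± 10.3, 21.6 ± 2.59, 32.1 ± 3.14 and 48.7 ± 2.36 CPM (SD) from baseline to 14dpr in immature mice. The mature means were 25.2 ± 4.995, 44.001 ± 4.23, 18.7 ± 4.89, 25.9 ± 0.517 and 36.7 ± 6.17. Its rise at 0dpr (log2 fold change 0.70 ± 0.11 (SE), adjusted p = 1.42e-05) and its fall at 2dpr (log2 fold change -1.27 ± 0.11 (SE), adjusted p = 4.87e-12; without mature 2dpr replicate 3, -1.29 (adjusted p = 8.25e-12)) both passed.

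Rspo2 was at or below 1.22 CPM in every 2dpr library and rose at 5dpr, to 1.27, 3.38, 3.82 and 3.21 in immature and 1.64, 0.914 and 1.44 in mature mice (log2 fold change 1.96 ± 0.38 (SE), adjusted p = 1.77e-04; without mature 2dpr replicate 3, 2.23 (adjusted p = 2.54e-05)). The 5dpr libraries of immature mice were all above all 2dpr libraries, and those of mature mice overlapped them. Rspo3 rose at 14dpr against 5dpr (log2 fold change 0.98 ± 0.26 (SE), adjusted p = 0.0115), and shares 404 exon bases with an antisense gene. Over all 6 genes, 1 rose at 0dpr, 1 rose and 4 fell at 2dpr, 3 rose at 5dpr, 2 rose at 14dpr against 5dpr, and 4 were higher at 14dpr than at baseline. Lgr6 was among the 4 that fell at 2dpr, and its call was lost without mature 0dpr replicate 1 (-0.77, adjusted p = 0.110). So was Rspo2 (log2 fold change -0.93 ± 0.39 (SE), adjusted p = 0.0392), whose call was lost in 8 of 16 fits that left out 1 library, with adjusted p up to 0.106 without mature 0dpr replicate 2, and when only the libraries compared were fitted (adjusted p = 0.139).

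**Figure D3:**
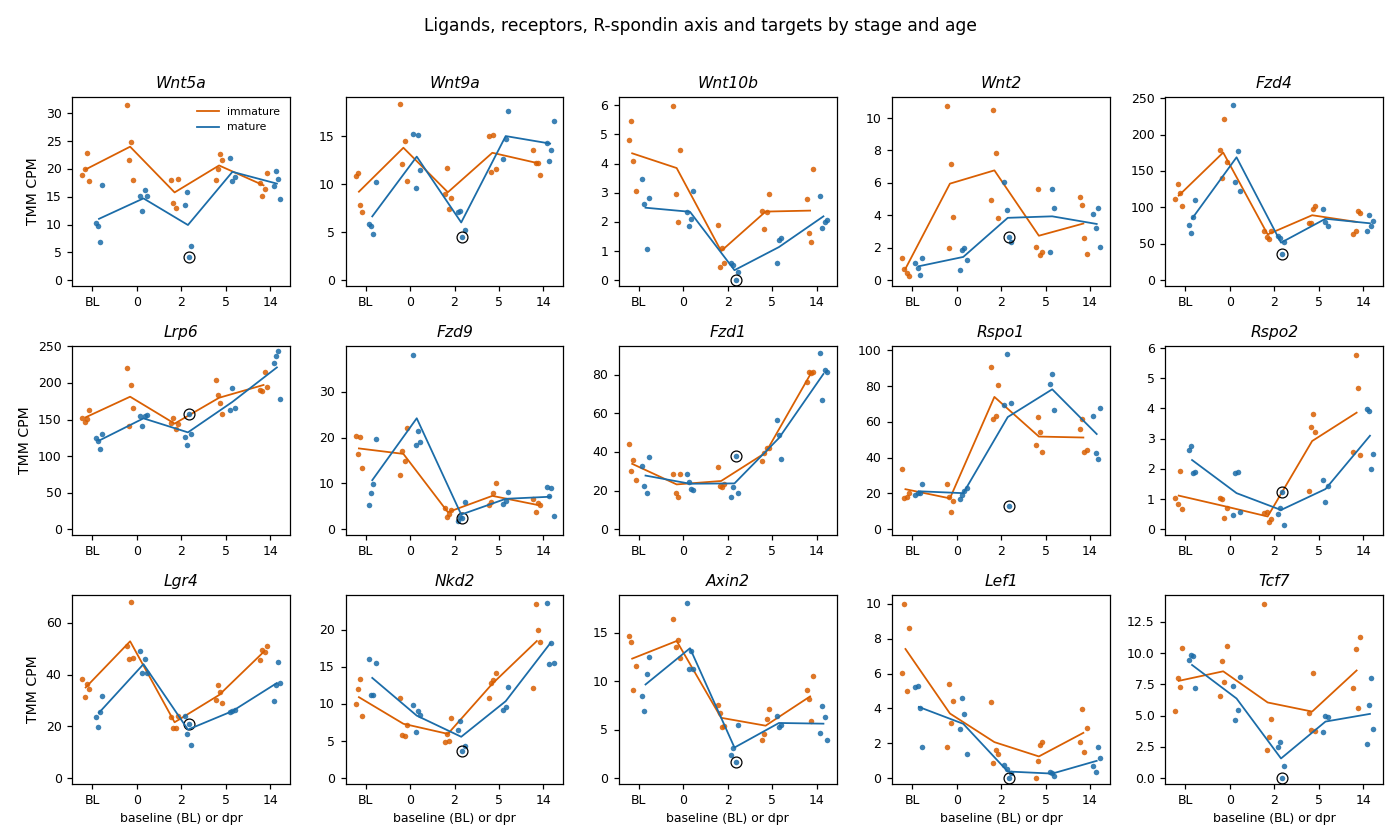
Each point is a library's CPM, lines join group means, orange marks immature and blue mature mice, the stages run from baseline (BL) to 14dpr, and the circled point is mature 2dpr replicate 3. Rspo1 rises at 2dpr while Fzd9, Fzd4, Lgr4, Axin2 and Wnt10b fall, and Fzd1 climbs from 2dpr to 14dpr in both ages.

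The secreted antagonists made up 7 of the 15 genes that rose from 5dpr to 14dpr, and 7 of the 10 antagonists rose there, with a median log2 fold change of 1.22 over the 10 against -0.02 over all genes. Earlier, 2 of 10 fell at 0dpr, near the 15.9% of all genes. At 2dpr 7 fell and 1 rose, against 30.8% and 27.9% of all genes. Dkk1, which blocks Lrp5 and Lrp6, stood at 0.952, 0.751, 0.606 and 1.997 CPM at immature 5dpr and 5.48, 10.7, 6.29 and 7.43 at immature 14dpr. In mature mice it went from 0.0863, 0.406 and 0.144 to 1.33, 3.35, 3.12 and 1.35. The stages did not overlap in either age (log2 fold change 3.02 ± 0.47 (SE), adjusted p = 2.14e-05). Within immature mice alone the change was 2.79 ± 0.58 (adjusted p = 0.00324) and within mature mice 3.25 ± 0.73 (adjusted p = 0.00622). Dkk1 had few reads, with at most 3 in 6 of the 39 libraries. Its fall at 2dpr also passed (log2 fold change -1.79 ± 0.46 (SE), adjusted p = 0.00105; without mature 2dpr replicate 3, -1.65 (adjusted p = 0.00193)).

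Wif1, the Wnt inhibitory factor, stood at 32.7, 37.7, 43.9 and 44.8 CPM at immature baseline and 39.2, 40.6, 25.2 and 23.4 at mature baseline. At 0dpr it was 23.01, 23.7, 8.65 and 19.1 in immature and 11.5, 9.98, 12.7 and 14.6 in mature mice, below every baseline library of the same age (log2 fold change -1.25 ± 0.28 (SE), adjusted p = 9.08e-04). At 5dpr it was 5.87, 9.27, 5.88 and 9.03 and 4.401, 4.01 and 1.29, and at 14dpr 34.97, 74.3, 39.4 and 74.3 and 16.5, 27.05, 34.7 and 13.7. Each 14dpr library was above every 5dpr library of its age (log2 fold change 2.86 ± 0.32 (SE), adjusted p = 1.07e-07), by 2.89 ± 0.43 within immature and 2.82 ± 0.49 within mature mice. Frzb, a secreted frizzled-related protein known from cartilage, stood at 5.39, 3.63, 10.5 and 9.72 at immature 5dpr and 22.1, 13.2, 13.2 and 23.05 at immature 14dpr, and at 4.31, 2.99 and 4.46 and 13.1, 11.1, 21.1 and 3.74 in mature mice, with overlap in mature mice alone (log2 fold change 1.45 ± 0.42 (SE), adjusted p = 0.0202). That call was lost without mature 5dpr replicate 3 (adjusted p = 0.0632) or mature 14dpr replicate 3 (adjusted p = 0.0583). Frzb also fell at 2dpr (log2 fold change -1.75 ± 0.42 (SE), adjusted p = 6.00e-04; without mature 2dpr replicate 3, -1.57 (adjusted p = 5.47e-04)).

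Dkk1, Frzb and Wif1 were among the antagonists that rose at 14dpr. For these genes the 250 bases before the RefSeq start (build GRCm38.p6) are shown, 5′ to 3′ on the strand of the gene. Capitals mark the core of the Tcf/Lef motif, searched as CTTTGA and, on the other strand, TCAAAG. The windows are chr19:30549497-30549746 (- strand) for Dkk1, chr2:80447397-80447646 (- strand) for Frzb and chr10:121033754-121034003 (+ strand) for Wif1.
Dkk1: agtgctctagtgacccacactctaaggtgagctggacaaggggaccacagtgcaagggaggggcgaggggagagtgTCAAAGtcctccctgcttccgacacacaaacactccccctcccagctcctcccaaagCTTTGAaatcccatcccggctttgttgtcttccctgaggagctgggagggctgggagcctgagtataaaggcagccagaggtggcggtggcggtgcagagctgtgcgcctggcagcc
Frzb: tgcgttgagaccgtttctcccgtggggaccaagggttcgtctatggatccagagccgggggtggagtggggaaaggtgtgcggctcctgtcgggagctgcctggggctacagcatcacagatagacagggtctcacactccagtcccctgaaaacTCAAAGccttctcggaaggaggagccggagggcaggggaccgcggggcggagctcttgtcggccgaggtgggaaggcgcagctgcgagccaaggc
Wif1: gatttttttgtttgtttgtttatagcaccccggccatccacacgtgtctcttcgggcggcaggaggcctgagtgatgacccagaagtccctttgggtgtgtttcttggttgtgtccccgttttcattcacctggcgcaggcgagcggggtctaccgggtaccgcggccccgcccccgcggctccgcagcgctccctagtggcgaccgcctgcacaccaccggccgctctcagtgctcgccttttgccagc
Dkk1 holds the core at 2 places, Frzb at 1 and Wif1 at none. Dkk2, an antagonist that also rose at 14dpr, has an entry that is not shown and holds the core at none. Of the 46 genes, 29 had a promoter entry and 6 of those (20.7%) held the core, against 15.8% of the 27025 genes with an entry. A match is a description of the sequence and not evidence of binding. Sfrp1, Sfrp4, Dkk3, Notum, Wnt5a, Lgr5 and Fzd8 are among the genes with no entry.

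Dkk3, a secreted glycoprotein of the Dickkopf family whose action on Wnt signalling is not settled, had the largest rise at 5dpr of all 46 genes with every library in, and the next after Rspo2 without mature 2dpr replicate 3. It stood at 21.5, 18.5, 18.01 and 32.6 CPM at immature 2dpr and 87.3, 80.3, 110.03 and 86.2 at immature 5dpr, and at 12.3, 13.8, 11.8 and 7.68 and 63.2, 53.9 and 54.1 in mature mice. The stages did not overlap (log2 fold change 2.17 ± 0.16 (SE), adjusted p = 2.13e-12; without mature 2dpr replicate 3, 2.18 (adjusted p = 1.45e-11)). At 14dpr it was 151, 115, 131 and 120.4 in immature and 191, 115, 159.8 and 116 in mature mice (log2 fold change 0.93 ± 0.16 (SE), adjusted p = 7.26e-05 against 5dpr). Its small fall at 0dpr (log2 fold change -0.40 ± 0.15 (SE), adjusted p = 0.0384) did not pass under 5 of the 7 other settings tried. The summed CPM of the 12 fibroblast genes rose over the same step as Dkk3, with a range of 11647 to 12722 at 2dpr and 25093 to 35852 at 5dpr in immature mice, and of 6429 to 8425 and 24313 to 27794 in mature mice.

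Sfrp4, a secreted frizzled-related protein of bone, passed the test between neighbouring stages at 14dpr and at no earlier step. Its level was 40.4 ± 6.27, 41.7 ± 8.25, 42.5 ± 7.76 and 48.3 ± 6.57 CPM (SD) from baseline to 5dpr in immature mice. The mature means were 40.3 ± 7.38, 26.8 ± 3.79, 39.3 ± 17.6 and 49.9 ± 5.19. At 14dpr it was 98.7, 123, 152 and 98.9 in immature and 169, 111, 98.4 and 177 in mature mice, above every library of the other stages (log2 fold change 1.38 ± 0.17 (SE), adjusted p = 4.02e-07 against 5dpr). Sfrp2 rose earlier, at 2dpr. It went from 27.9, 25.9, 10.5 and 17.9 CPM at 0dpr to 83.5, 66.1, 79.99 and 55.8 at 2dpr in immature mice, without overlap, and from 14.6, 15.2, 14.7 and 27.1 to 27.9, 59.3, 19.98 and 19.6 in mature mice, with overlap (log2 fold change 1.31 ± 0.26 (SE), adjusted p = 4.52e-05; without mature 2dpr replicate 3, 1.40 (adjusted p = 2.26e-05)). It ended with the largest gain over baseline of the 46 genes, at 165, 54.5, 123 and 73.7 and 123, 83.7, 74.8 and 88.2 at 14dpr (log2 fold change 2.66 ± 0.27 (SE), adjusted p = 2.46e-10). The exons of Sfrp2 overlap an antisense gene over 347 bases.

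Dkk2, a relative of Dkk1 that also binds Lrp6, rose at 14dpr against 5dpr (log2 fold change 1.08 ± 0.21 (SE), adjusted p = 5.15e-04). Sfrp1, a Wnt-binding inhibitor of bone formation, was higher at 14dpr than at baseline (log2 fold change 1.63 ± 0.16 (SE), adjusted p = 1.19e-10), and its rise of 0.48 ± 0.16 over 5dpr was lost in 11 of 15 fits that left out 1 library (adjusted p up to 0.160, without mature 5dpr replicate 3). Sfrp5 was the antagonist that ended below baseline (log2 fold change -1.54 ± 0.23 (SE), adjusted p = 1.19e-06). Notum fell at 2dpr (log2 fold change -2.28 ± 0.70 (SE), adjusted p = 0.00563; without mature 2dpr replicate 3, -2.12 (adjusted p = 0.0109)), but immature 0dpr replicate 1 held 11.95 CPM and the other immature 0dpr libraries 1.23, 0 and 0.417. Without immature 0dpr replicate 1 the change was -0.95 (adjusted p = 0.173). Notum shares 708 exon bases with the antisense gene Notumos and 210 with Myadml2os. Of 10 antagonists, 6 were higher and 1 lower at 14dpr than at baseline.

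**Figure D4:**
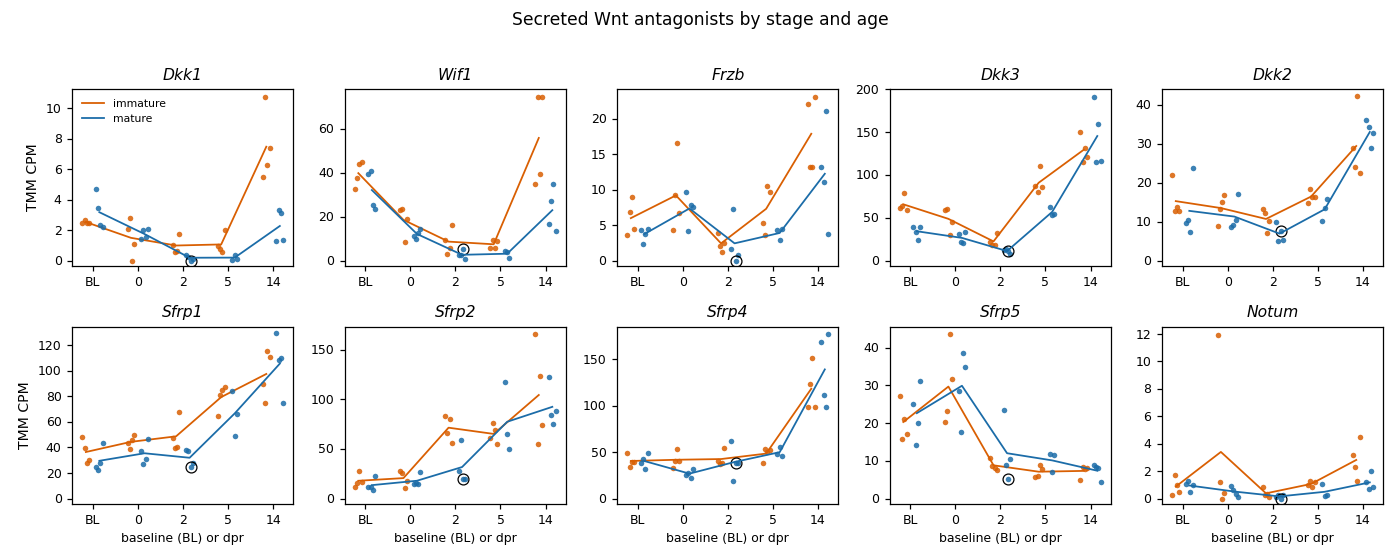
Each point is a library's CPM, lines join group means, orange marks immature and blue mature mice, the stages run from baseline (BL) to 14dpr, and the circled point is mature 2dpr replicate 3. Dkk1, Wif1, Frzb, Dkk2 and Sfrp4 rise at 14dpr, Dkk3 and Sfrp1 rise from 2dpr on, Sfrp2 is higher from 2dpr on, and Sfrp5 falls at 2dpr and stays low.

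With every library in, the 4 targets and effectors all fell at 2dpr, though the call of Nkd2 was lost in some fits. Axin2, the common readout of the canonical branch, stood at 16.4, 13.6, 14.2 and 12.4 CPM at immature 0dpr and 7.54, 6.75, 5.28 and 5.34 at immature 2dpr, and at 18.04, 11.2, 13.1 and 11.3 and 2.396, 3.12, 1.67 and 5.46 in mature mice. The stages did not overlap (log2 fold change -1.61 ± 0.19 (SE), adjusted p = 6.21e-09; without mature 2dpr replicate 3, -1.51 (adjusted p = 8.63e-09)). Its level was then 5.41 ± 1.44 and 5.69 ± 0.612 CPM (SD) at 5dpr and 8.43 ± 1.96 and 5.62 ± 1.599 at 14dpr in immature and mature mice, below the 12.3 ± 2.53 and 9.66 ± 2.43 of baseline (log2 fold change -0.66 ± 0.19 (SE), adjusted p = 0.00409). Neither later step passed for Axin2 (5dpr against 2dpr 0.31 ± 0.20, 14dpr against 5dpr 0.30 ± 0.20). Lef1, a transcription factor partner of beta-catenin, fell at 2dpr (log2 fold change -1.90 ± 0.43 (SE), adjusted p = 3.14e-04; without mature 2dpr replicate 3, -1.74 (adjusted p = 4.73e-04)) and had the largest loss from baseline to 14dpr of the 46 genes (log2 fold change -1.76 ± 0.41 (SE), adjusted p = 5.79e-04). It stood at 6.05, 9.999, 4.99 and 8.61 at immature and 5.24, 5.28, 4.04 and 1.795 at mature baseline, and at 2.07, 3.95, 1.52 and 2.87 and 0.723, 0.335, 1.78 and 1.14 at 14dpr, with no overlap between the stages in either age. Lef1 shares 1208 exon bases with an antisense gene, and Axin2 shares 209 with another.

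Tcf7, another partner of beta-catenin that T cells also express, fell at 2dpr (log2 fold change -1.24 ± 0.35 (SE), adjusted p = 0.00257; without mature 2dpr replicate 3, -1.06 (adjusted p = 0.00244)). It was high in 1 library there: immature replicate 1 held 13.9 CPM, and the other immature 2dpr libraries 2.25, 3.27 and 4.76. The 12 T cell genes summed to 74.2 CPM in that library, against a median of 13.3 over the 4 libraries of the group. Nkd2, which binds Dishevelled and damps the canonical branch, fell at 0dpr (log2 fold change -0.63 ± 0.17 (SE), adjusted p = 0.00452) and slightly at 2dpr (log2 fold change -0.44 ± 0.17 (SE), adjusted p = 0.0295; without mature 2dpr replicate 3, -0.37 (adjusted p = 0.0612)), rose at 5dpr (log2 fold change 1.00 ± 0.18 (SE), adjusted p = 6.01e-05) and rose again at 14dpr (log2 fold change 0.67 ± 0.17 (SE), adjusted p = 0.00888 against 5dpr). The call at 2dpr was also lost in other fits that left out 1 library, with adjusted p up to 0.132 without immature 0dpr replicate 1. The level of Nkd2 was 10.9 ± 2.23, 7.32 ± 2.38, 5.96 ± 1.53, 12.7 ± 1.41 and 18.5 ± 4.701 CPM (SD) from baseline to 14dpr in immature mice. The mature means were 13.5 ± 2.62, 8.42 ± 1.57, 5.57 ± 1.87, 10.4 ± 1.69 and 18.1 ± 3.88. Nkd2 was thus above and Axin2 and Lef1 below baseline at 14dpr. With the muscle score as a covariate the difference of Lef1 passed, at -2.38 (adjusted p = 0.0349), and those of Axin2, at -0.11 (adjusted p = 0.883), and Nkd2, at 0.31 (adjusted p = 0.576), did not.

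The ages were compared at each stage and over all of them. Averaged over the 5 stages, 7 of the 46 genes passed, all higher in immature mice, against 2.45% of all genes (1.61% higher and 0.835% lower in immature mice). They were Lef1 (log2 fold change 1.43 ± 0.28 (SE), adjusted p = 0.00229), Dkk1 (log2 fold change 1.10 ± 0.28 (SE), adjusted p = 0.0237), Wif1 (log2 fold change 1.03 ± 0.19 (SE), adjusted p = 0.0011), Wnt10b (log2 fold change 0.83 ± 0.21 (SE), adjusted p = 0.0247), Dkk3 (log2 fold change 0.66 ± 0.10 (SE), adjusted p = 4.16e-05), Wnt5a (log2 fold change 0.46 ± 0.12 (SE), adjusted p = 0.0239) and Lgr4 (log2 fold change 0.33 ± 0.07 (SE), adjusted p = 0.00479). They include a ligand of each branch, an R-spondin receptor and 3 antagonists. Of the 46 genes, 41 had a log2 fold change above 0, with a median of 0.27. The median over all genes at single stages ran from -0.02 at 5dpr to 0.04 at 2dpr. The share of all genes above 0 is not given here. Without mature 2dpr replicate 3, 8 genes passed, the same 7 and Wnt16, with 793 of all genes in place of 519. Each call held in every fit that left out 1 library, except Wnt10b in 3 of 39 (adjusted p up to 0.0580, without immature 2dpr replicate 1) and Dkk1 in 1 (adjusted p = 0.0504, without immature 5dpr replicate 5).

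The fibroblast genes also differed with age. Their summed CPM was 6782 to 9107 in immature and 2236 to 4060 in mature mice at baseline, 7382 to 9243 and 3003 to 3809 at 0dpr, and 11647 to 12722 and 6429 to 8425 at 2dpr, with no overlap, and overlapped at 5dpr and 14dpr. With a fibroblast score as a covariate, none of the 46 genes passed over all stages, and 8 of all genes passed in place of 519. The log2 fold change of Dkk3 was then 0.05 (adjusted p = 0.999), that of Wnt5a -0.12 (adjusted p = 0.981) and that of Lgr4 0.12 (adjusted p = 0.954). Those of Lef1 and Dkk1 were 1.83 (adjusted p = 0.285) and 1.06 (adjusted p = 0.767). With an osteoblast score as a covariate, none passed either, with 161 of all genes in place of 519, and the differences of Dkk1 and Wif1 were 0.11 (adjusted p = 0.951) and 0.22 (adjusted p = 0.619) while Lef1 was at 1.10 (adjusted p = 0.18). Wnt10b was then at 0.51 (adjusted p = 0.491), Dkk3 at 0.42 (adjusted p = 0.0805), Wnt5a at 0.38 (adjusted p = 0.303) and Lgr4 at 0.30 (adjusted p = 0.132). Both fits were added after the data were seen. With the muscle score the same 7 passed, and Lgr5 as well, with 612 of all genes in place of 519.

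At single stages Dkk3 was the member that passed. At baseline it stood at 61.3, 63.4, 79.2 and 59.5 CPM in immature and 39.9, 33.6, 24.4 and 39.9 in mature mice, with no overlap (log2 fold change 0.93 ± 0.21 (SE), adjusted p = 0.0265; 0.585% of all genes passed). At 0dpr it stood at 58.7, 60.8, 30.3 and 45.8 and 31.4, 22.2, 20.3 and 33.1, with overlap (log2 fold change 0.87 ± 0.22 (SE), adjusted p = 0.0436; 0.726% of all genes). At 2dpr the libraries did not overlap (log2 fold change 1.00 ± 0.22 (SE), adjusted p = 0.0253; 0.627% of all genes; without mature 2dpr replicate 3, 1.02 (adjusted p = 0.0444)). These calls were close to the threshold: leaving out 1 library lost it in 4 of 8 fits at baseline (adjusted p up to 0.159, without immature baseline replicate 4), in 4 of 8 at 0dpr (up to 0.176, without immature 0dpr replicate 1) and in 3 of 8 at 2dpr (up to 0.167, without immature 2dpr replicate 4). With the fibroblast score as a covariate the difference was -0.01 at baseline, -0.20 at 0dpr and 0.24 at 2dpr, with no call. Of all genes, 1, 0 and 2 passed with that score at these stages, in place of 124, 154 and 133. At 14dpr the difference of Dkk3 was -0.17 ± 0.21.

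Other genes came near the threshold at 2dpr. Wif1 stood at 9.63, 3.04, 5.95 and 16.3 CPM in immature and 2.48, 2.43, 5.22 and 0.833 in mature mice (log2 fold change 1.75 ± 0.45 (SE), adjusted p = 0.0559), and passed without mature 2dpr replicate 3, its highest mature library (2.25 (adjusted p = 0.0247)). Lef1 stood at 4.396, 0.9002, 1.59 and 1.39 and 0.743, 0.5197, 0 and 0.278, with no overlap (log2 fold change 2.37 ± 0.66 (SE), adjusted p = 0.0785; without that library, 2.05 (adjusted p = 0.18)). Tcf7 differed by 1.92 ± 0.51 (adjusted p = 0.0624), and by an adjusted p of 0.497 without immature 2dpr replicate 1, the library with the most T cell reads. The highest Lef1 value at 2dpr, 4.396, came from that same library. The part of T cells in the differences of Lef1 and Tcf7 was not tested. DESeq2 called 7 genes at 2dpr: Axin2, Dkk1, Dkk3, Lef1, Sfrp2, Tcf7 and Wif1. It called 428 of 19477 genes there, against 133 of 21203 by edgeR. In the libraries themselves, 6 of the 46 genes did not overlap at 2dpr, all higher in immature mice, against 3.20% of all genes.

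At 5dpr and 14dpr none of the 46 genes passed in edgeR, where 0% and 0.00943% of all genes passed, and none passed in DESeq2 at either stage. By DESeq2, 33 and 32 of 21122 genes passed. Dkk1 nonetheless did not overlap between the ages at 5dpr, at 0.952, 0.751, 0.606 and 1.997 CPM in immature and 0.0863, 0.406 and 0.144 in mature mice (2.17 ± 0.73, adjusted p = 0.616), or at 14dpr, at 5.48, 10.7, 6.29 and 7.43 and 1.33, 3.35, 3.12 and 1.35 (1.71 ± 0.55, adjusted p = 0.782). Wif1 showed the same order at 14dpr, with 34.97, 74.3, 39.4 and 74.3 in immature and 16.5, 27.05, 34.7 and 13.7 in mature mice (1.28 ± 0.40, adjusted p = 0.733). At 5dpr 7 of 46 genes did not overlap with immature mice higher and 1 with mature mice higher, against 4.05% and 6.18% of all genes, and at 14dpr 4 and 0, against 2.76% and 2.72%. The osteoblast sums at 5dpr overlapped between the ages (18658 to 32276 and 17077 to 20221), and the cartilage sums did not (504 to 1358 and 246 to 364).

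None of the 46 genes had an age by stage interaction in edgeR (0.184% of all genes did), with the lowest values in Dkk3 (adjusted p = 0.195) and Dkk1 (adjusted p = 0.29). By DESeq2, 1 of the 46 was called, Dkk1. DESeq2 called 294 of 18657 genes for the interaction. The change between stages was also compared between the ages step by step. None of the 46 genes passed for any of the 5 changes, and at most 0.0613% of all genes did. A change called within 1 age and missed within the other is therefore not shown to differ.

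**Figure D5:**
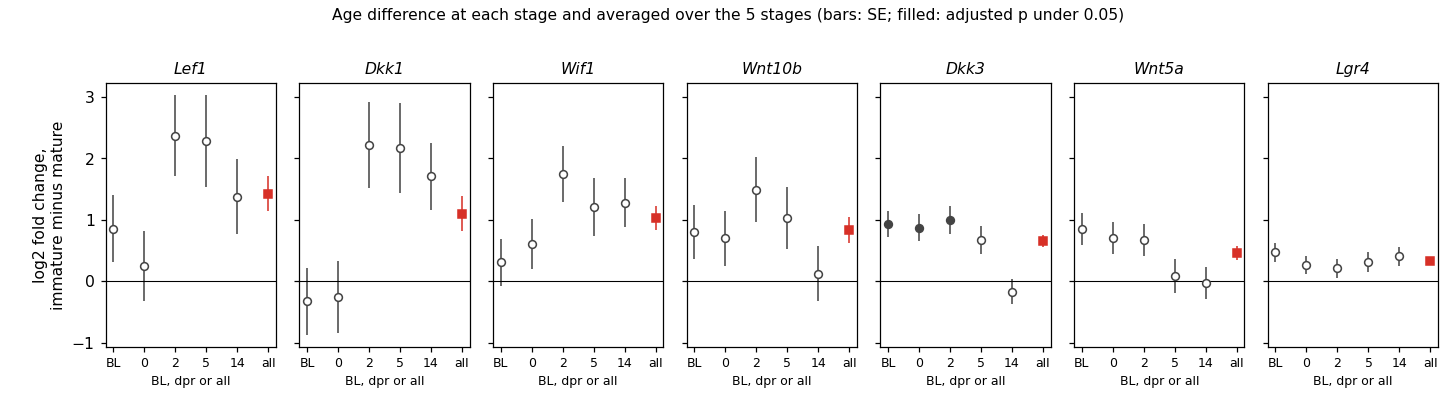
Each panel gives the log2 fold change of immature minus mature mice for 1 of the 7 genes that passed over all stages, at baseline (BL), at each day post resection and averaged over the 5 stages (red square), with standard errors, filled where the adjusted p is under 0.05. Lef1, Dkk1 and Wif1 lie highest from 2dpr on, while Dkk3 and Wnt5a lie above 0 at the early stages and near 0 at 14dpr.

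Of 41 other measured genes of the pathway (receptor partners, the destruction complex, Dishevelled genes and further modulators), 13 rose and 2 fell at 0dpr, against 17.1% and 15.9% of all genes. At 2dpr 7 rose and 18 fell (17.1% and 43.9%), against 27.9% and 30.8% of all genes, and at 5dpr 16 of 41 rose, against 11.5%. At 14dpr against 5dpr 5 rose (12.2%), against 5.21%, and 15 were higher and 4 lower at 14dpr than at baseline, against 22.4% and 23.5%. Without mature 2dpr replicate 3, 6 rose and 18 fell at 2dpr (30.6% and 31.4% of all genes) and 18 rose and 2 fell at 5dpr (12.4% and 11.2%). Sost, the sclerostin gene of osteocytes and an Lrp5 and Lrp6 antagonist, had the largest fall at 2dpr (log2 fold change -3.44 ± 0.57, adjusted p = 3.17e-06; without that library, -3.31 ± 0.59, adjusted p = 9.41e-06) and the largest rise at 14dpr against 5dpr (2.18 ± 0.54, adjusted p = 0.00645), the same directions as Dkk1 and Wif1. Its level was 2.86 ± 2.13, 1.28 ± 0.9097, 1.45 ± 0.753 and 5.8996 ± 2.44 CPM (SD) from 0dpr to 14dpr in immature mice. In mature mice, with mature 2dpr replicate 3 included, it was 7.68 ± 5.41, 0.138 ± 0.135, 0.367 ± 0.412 and 2.02 ± 1.62. Cthrc1, a secreted stromal protein, rose at 2dpr (2.73 ± 0.23, adjusted p = 1.66e-12; without that library, 2.60 ± 0.23, adjusted p = 4.49e-12) and 5dpr (1.78 ± 0.21, adjusted p = 5.69e-08; 1.90 ± 0.21, adjusted p = 1.96e-08), and Tnfrsf19, a Wnt target, fell at 2dpr (-2.46 ± 0.21, adjusted p = 2.19e-12; -2.71 ± 0.19, adjusted p = 2.75e-14) and rose at 14dpr against 5dpr (1.06 ± 0.21, adjusted p = 6.48e-04).

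The non-canonical receptors Ror2 (1.53 ± 0.20, adjusted p = 7.19e-07; without mature 2dpr replicate 3, 1.47 ± 0.21, adjusted p = 1.53e-06) and Ptk7 (1.65 ± 0.21, adjusted p = 3.56e-07; 1.78 ± 0.21, adjusted p = 1.10e-07) rose at 5dpr, and Ptk7 had fallen at 0dpr (-0.90 ± 0.21, adjusted p = 0.00135). Between baseline and 14dpr the largest differences were those of Cthrc1 (3.77 ± 0.22, adjusted p = 8.39e-16), Ror2 (2.07 ± 0.21, adjusted p = 2.18e-10), Rnf43, which removes Frizzled receptors from the cell surface (-1.59 ± 0.45, adjusted p = 0.00363), and Wls, which carries Wnt proteins to the membrane (1.24 ± 0.10, adjusted p = 6.83e-13). Between the ages 3 of the 41 passed over all stages, all higher in immature mice: Cthrc1 (0.79 ± 0.14, adjusted p = 4.72e-04), Serpinf1 (0.57 ± 0.09, adjusted p = 6.22e-05) and Ror2 (0.48 ± 0.13, adjusted p = 0.0365), the same 3 as without mature 2dpr replicate 3. Cthrc1 stood at 14.7 ± 7.01 CPM (SD) in immature and 3.21 ± 0.525 in mature mice at 0dpr (2.17 ± 0.35, adjusted p = 6.34e-04).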

How the data were processed

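RNA was sequenced from 39 libraries of mouse rib with a stranded kit in 150 base pairs of reads per end. The authors aligned reads with STAR 2.5.2a to GRCm38 and deposited whole-number counts per gene, in a full table of 48709 genes and a filtered one of 21204, and a table of normalised signal (CPM on TMM library sizes), which was recomputed from the counts and matched. Their filter and the strand setting of their counting are not given in the sources used here. The 1 row that is no mouse gene held at most 0.00222621% of reads and was left out. Mature 5dpr replicate 2 was not analysed here.

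Filtered counts were tested with edgeR 4.0.16 (R 4.3.3; limma 3.58.1): TMM, 1 coefficient for each of 10 groups, quasi-likelihood tests and Benjamini-Hochberg adjustment over 21203 genes, with a threshold of 0.05. The standard error is the fold change over the root of F. Members past the threshold are named, or the 8 largest changes in a direction among those with at least 1 CPM, plus the 2 members of each role with the highest CPM and the 4 largest changes of other pathway genes. Alternatives were DESeq2 1.42.0, RLE scaling, other filters, a replicate block, marker scores and leaving out libraries. Covariate scores are mean log2 CPM of a marker list with a prior count of 2. Scripts were tested on simulated data. The genes and lists were chosen with earlier results of these data known.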

Additional observations from a re-analysis of the deposited data

Results flagged for a closer look

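Groups of 4 libraries were searched for a library that stood apart from the other 3, by the gap to its nearest neighbour over the range of the group, for 22 genes in 198 groups. Chance gives about 1 in 20 groups, or 9.9 here, and 9 were found. Fzd10 stood at 28.08 CPM in mature 0dpr replicate 1, against 0.833 to 1.497 in the other libraries of its group. Notum stood at 11.95 in immature 0dpr replicate 1, against 0 to 1.23. Fzd9 stood at 38.12 in mature 0dpr replicate 1, against 18.3 to 21.4, and Lrp6 at 140.7 in mature 0dpr replicate 2, against 154 to 157. Sfrp2 stood at 27.09 in mature 0dpr replicate 4, against 14.6 to 15.2. Wnt2 stood at 5.634 in immature 5dpr replicate 3, against 1.54 to 2.06. At baseline, Rspo1 stood at 33.93 in immature replicate 2, against 17.5 to 19.96, Dkk1 at 2.68 in immature replicate 3, against 2.49 to 2.51, and Tcf7 at 7.181 in mature replicate 4, against 9.43 to 9.81.

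Of the 9 family genes outside the authors' filter, 5 had a library with more than 3 reads. The highest count in a library was 10 for Wnt3a, 6 for Wnt1, 7 for Rspo4, 5 for Wnt8b and 7 for Rspo4os.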

How the results depend on the processing

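The number of genes called was within 1.5 times of the value in the report under RLE scaling, the filter of edgeR and the replicate block for each stage and age comparison. With the skeletal muscle score as a covariate it was 5 for 0dpr against baseline, 4 for 2dpr against 0dpr, 14 for 14dpr against baseline, 0 for the ages at 0dpr and 2 at 2dpr. In the same order 1841, 1427, 4174, 154 and 277 of all genes passed, in place of 7002, 12433, 9737, 154 and 133. With the fibroblast score it was 0 for the ages at baseline, at 0dpr, at 2dpr and over all stages, and with the osteoblast score 0 at 0dpr, 0 at 2dpr, 0 over all stages and 1 (Dkk3) for the interaction. In the same order, the fibroblast score left 1, 0, 2 and 8 of all genes, and the osteoblast score 151, 67, 161 and 65. Fitting only the libraries compared gave 0 for the ages at 0dpr and 0 at 2dpr, where 0 and 4 of all genes passed. DESeq2 gave 2 at 0dpr (Dkk3 and Wnt2), 7 at 2dpr and 1 for the interaction, and all genes with at least 1 count gave 3 at 2dpr. In these comparisons DESeq2 called 349, 428 and 294 of all genes, and the fit with at least 1 count called 164 of 35470. Immature mice alone gave 4 for 0dpr against baseline, 21 for 2dpr against 0dpr, 9 for 5dpr against 2dpr and 7 for 14dpr against 5dpr, where mature mice alone gave 6. The cause of these differences was not tested.

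Signs changed with the muscle score for 2dpr against 0dpr in Dkk2 (0.28), Fzd7 (0.000505), Fzd10os (0.47) and Fzd10 (0.87), and for 14dpr against baseline in Fzd7 (0.035), Fzd9 (0.23) and Fzd4 (0.065). They changed with the fibroblast score for Wnt5a at baseline (-0.019), 0dpr (-0.34), 2dpr (-0.012) and over all stages (-0.12), for Dkk3 at baseline (-0.0072) and 0dpr (-0.20), and for Wnt16 at 0dpr (-0.42). None of these values passed the test.

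Leaving out 1 library gave 11 to 15 genes for 0dpr against baseline, 30 to 35 for 2dpr against 0dpr, 17 to 21 for 5dpr against 2dpr, 13 to 17 for 14dpr against 5dpr and 24 to 27 for 14dpr against baseline. Between the ages it gave 0 to 2 at baseline, 0 to 2 at 0dpr, 0 to 4 at 2dpr and 6 to 8 over all stages. The ranges over all genes in these fits are not given here. Fzd10 at 0dpr ranged from -2.25 to 0.83, and the value above 0 was that without mature 0dpr replicate 1. Nothing in the labels says what the replicate numbers share, and same-numbered libraries did not, on average, deviate together (mean r = 0.00847 over 154 pairs, 11 above 0.1). With the number as a replicate block 12, 33, 17, 14 and 27 genes passed in the 5 stage comparisons, 1 between the ages at baseline, 0dpr and 2dpr each, and 6 over all stages, where Dkk1 was lost (0.97, adjusted p = 0.0813). Of all genes, 6017, 12261, 4105, 2271 and 9129 passed with that block in the stage comparisons. Between the ages 100, 122 and 140 of all genes passed at those stages, and 470 over all stages. Members with few reads limit what can be seen: Wnt9b had at most 12 reads in a library and Wnt10a at most 15. Counts of at most 3 reads were also found for Notum in 11 libraries, Wnt7b in 9, Dkk1 in 6, Wnt6 in 5, and Lef1 and Rspo2 in 4 each.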
